A study of Mus musculus with 6 samples.

Results

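RNA G-quadruplexes of the canonical short-loop class in 3′ untranslated regions (UTRs) were described in differentiating mouse embryonic stem cells. They are the sites that the authors' deposited tables class as canonical, with G tracts of 3 or more guanines joined by loops of 1 to 7 nucleotides, and place in the 3′ UTR and nowhere else. The rule gave 600 of 5538 sites, in 467 gene entries and 520 loci of overlapping motifs. The same tables hold 867 canonical sites in all and 2775 sites in 3′ UTRs, of which 947 are bulged, 515 two-quartet, 389 long-loop, 303 potential quadruplex and 21 potential triplex sites. Members that share a gene or overlap are not independent, and Phf21a alone holds 5.

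The cells are a clonal hybrid line with the genotype label WT, 129S1/CastEiJ x 129S1, that carries 1 TsixTST allele, and all groups share this line. Cells were sampled on day 0 (on feeder cells, with leukemia inhibitory factor), on day 3 (embryoid bodies in suspension, feeders depleted and the factor withdrawn) and on day 7 (attached growth), with 2 samples a day. All 6 samples were treated in the cell with 4% dimethyl sulfate (DMS) for 7 minutes, chromatin-bound polyadenylated RNA was isolated and 60 to 80 nucleotide fragments were reverse transcribed with K+ or with Li+. In addition, 2 tables named as in vitro came with the day 7 samples. The labels do not describe that preparation, and its identity rests on the name. A single clone supplies every sample, so clones cannot be compared, and the labels do not say that the 2 samples of a day were separate cultures: p-values then measure only the spread between these samples.

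In a G-quadruplex, guanines from 4 tracts pair in stacked planes around a monovalent cation. K+ holds the planes together well and Li+ poorly. Short loops and long tracts are known to make the fold stable. DMS methylates a face of guanine that the fold hides, so a motif that was folded in the cell keeps unmodified guanines, refolds in K+ during reverse transcription and stops the enzyme, while a motif that was open is methylated and cannot refold. The stop share, that is stops over reads at a site, in K+ set against Li+ is therefore the readout. Some 3′ UTR quadruplexes have been linked to RNA localisation, polyadenylation and turnover.

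The motifs that the results below turn on are printed from the authors' deposited tables, 5′ to 3′ on the transcript strand as DNA letters, with G tracts in capitals and loops in lower case. Coordinates are 1-based on GRCm38. Prmt1 and Ptbp1 had the deepest in-cell coverage, those from Jun to Cdk16 were called in a comparison of days, and Lin28a belongs to the list of early embryo regulators. Vgll4 and Cntfr had the highest in vitro K+ share, Midn had the lowest, and Nup188 had the largest change between the tube and the cell.
Prmt1, chr7:44976835-44976862, minus strand: GGGGGGatGGGcttGGGGGatGGGGGGG
Ptbp1, chr10:79864317-79864333, plus strand: GGGGaaGGGGGGGGGGG
Jun, chr4:95049837-95049858, minus strand: GGGaGGGctGGGaaGGGGGGGG
Laptm4a, chr12:8938441-8938458, plus strand: GGGtatGGGGGGGaGGGG
Ptk7, chr17:46564644-46564662, minus strand: GGGGtGGGtGGGcttGGGG
Wnk1, chr6:119926298-119926317, minus strand: GGGGGGGtGGGGGGGtGGGG
Arl6ip5, chr6:97233228-97233251, plus strand: GGGGtaGGGGtGGGGGGtGGGGGG
Cdh3, chr8:106555854-106555871, plus strand: GGGGtGGGtGGGGcaGGG
Pkm, chr9:59679159-59679183, plus strand: GGGGctgaGGGtgtGGGGcccaGGG
Cdk16, chrX:20699771-20699792, plus strand: GGGGtGGGaGGGcaaGGGaGGG
Lin28a, chr4:134003569-134003586, minus strand: GGGGaGGGtGGGaaaGGG
Vgll4, chr6:114862051-114862068, minus strand: GGGGGGaGGGtGGGtGGG
Cntfr, chr4:41657529-41657545, minus strand: GGGaGGGaGGGGtaGGG
Nup188, chr2:30344041-30344063, plus strand: GGGcaGGGagccaaGGGGctGGG
Midn, chr10:80157935-80157956, plus strand: GGGGtGGGtGGGtGGGaaGGGG

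In the sequences no loop between tracts exceeded 7 nucleotides, as the label has it. Tracts were read as runs of 3 or more guanines, so their length is no test of the label. The fewest tracts in a member was 1. Motifs were 15 to 34 nucleotides long (median 23), and guanine made up a median of 72% of the bases. In 436 members there were 4 tracts, in 96 more than 4, and in 68 there were 3 or fewer, where a long tract serves as more than 1. Wnk1 and Ptbp1 are of the last kind, with a longest tract of 7 and 11 guanines. Loops were counted only between such runs. A loop made of guanine inside a long tract is not counted, so such motifs can hold more short loops than stated. By this count total loop length had a median of 7 nucleotides, and 134 members had no loop of 1 nucleotide, 216 had 1, 179 had 2 and 62 had 3. The 5′-most base of the marked stop span was the last guanine of the motif in 261 members, the base after it in 142 and a base further upstream in 196. A span can be several bases wide, and the enzyme, which comes from the 3′ side, reaches this base last. The median distance from the stop to the RefSeq gene end was 701 nucleotides in 589 members, against 718 in 2139 other 3′ UTR sites.

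Listed reads per library in cells were 413278 to 4212056, and 63.5% to 83.8% of these lay on 9 noncoding and mitochondrial entries. Members held 9596 to 74477 K+ reads and 11326 to 141007 Li+ reads in cells, and between 4 and 327 of them were listed at 0. No table lists a coverage from 1 to 5, so a listed 0 stands for up to 5 reads. Day 0 replicate 2 stands apart. Its members had more stops in Li+ than in K+, with pooled shares of 2.65% in K+ and 7.54% in Li+, and the median log2 odds ratio was -1.31 over 174 members. In day 0 replicate 1 the pooled shares were 4.25% in K+ and 4.49% in Li+. Across 123 to 172 members per pair, its log2 odds ratios had a Spearman's rho of -0.32 to -0.08 with each of the other 5 in-cell samples, while the pairs among those 5 had 0.01 to 0.29. These correlations are weak, and 2 of the pairs among the other samples were just below 0 by Pearson's r, at -0.02 and -0.04. Results are also given without day 0 replicate 2 and with its K+ and Li+ columns exchanged, a setting added after the values were seen.

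**Figure D1:**
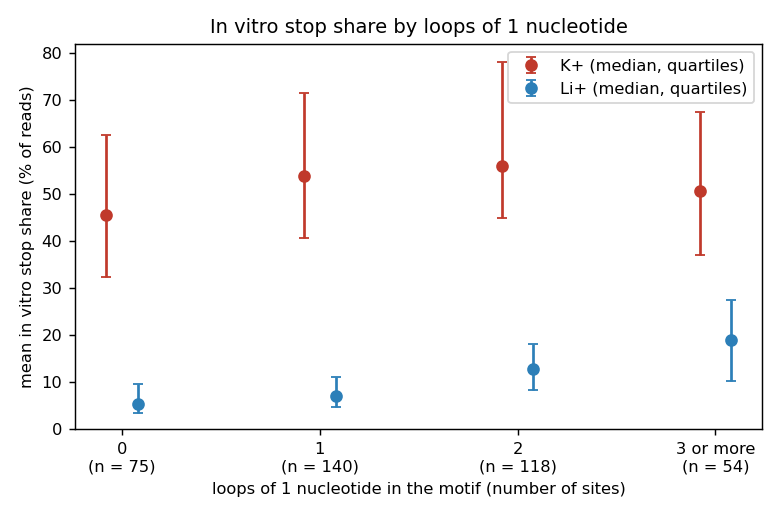
In vitro stop share (percent of reads, mean of 2 libraries) in K+ and Li+ by number of loops of 1 nucleotide, at 387 members with 20 or more reads in all 4 in vitro libraries. Loops were counted between runs of 3 or more guanines, not inside a long run. Points are medians and bars quartiles; the Li+ median is 5.36% with no such loop and 18.9% with 3 or more, while the K+ median stays between 45.6% and 55.9%.

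In vitro, canonical 3′ UTR motifs stopped the enzyme on most reads in K+. The pooled share was 54.7% and 54.4% in K+, against 14.9% and 11.4% in Li+. The median member had 58.0% and 59.8% in K+ (586 and 597 members with 20 or more reads), where other 3′ UTR sites had 50.9% and 52.6%. In Li+ the medians were 9.96% and 8.82% in members, against 5.67% and 5.00% in other 3′ UTR sites, so the median log2 odds ratio of K+ over Li+ was 3.54 and 3.55 in members and 3.75 and 3.77 in the others. These are descriptions of 2 libraries each. Every listed site with 20 or more reads in both cations had a K+ excess in vitro, whatever its class, so that excess is a property of the site list.

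Members differed widely among themselves. Among 407 with 100 or more K+ reads in both libraries the mean K+ share ran from 10.8% to 98.9% with a median of 56.9%, 38 exceeded 90% and 3 were under 20%. Vgll4, a transcriptional cofactor of TEAD factors, had 147 of 149 and 123 of 124 K+ reads stopped. Cntfr, the receptor for ciliary neurotrophic factor, had 334 of 345 and 288 of 290. Alg8, Zfp609, Rtf1, Rnf146, Loxl2 and Ncl averaged 96.4% to 97.4%. Several of these sites stopped the enzyme often in Li+ too. Vgll4 had 57 of 69 and 5 of 9 Li+ reads stopped, and Cntfr averaged 39.2% in Li+. The others averaged from 7.35% at Rnf146 to 39.5% at Rtf1, with no minimum of Li+ reads. At the other end, Midn, a factor in proteasomal degradation, had 96 of 806 and 109 of 1124, and Cdkn1a, which encodes the cell cycle inhibitor p21, had 230 of 1436 and 222 of 1678. Car4, Foxo4 and Srebf2 averaged 17.7% to 21.4%. Midn has 5 G tracts and 3 loops of 1 nucleotide, and its low share counts stops at the base after the last tract. An overlapping member starts at the same base, ends at chr10:80157950 before the last tract and holds the 3 short loops. The share of that member is not given here, so the low value does not describe the short-loop part alone.

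Loop length, counted between runs of guanine and not inside them, went with the Li+ share more than with the K+ share. Across 387 members, which share the same 4 libraries, Spearman's rho of the Li+ share was 0.47 with the number of loops of 1 nucleotide and -0.43 with total loop length. For the K+ share the values were 0.11 and -0.30. Members with a longest tract of 3 guanines had a median K+ share of 68.1% (31 members), and those with a tract of 7 or more 50.0% (68 members). In vitro odds ratios and those of day 7 cells were almost unrelated (rho = -0.14 over 303 members), in libraries whose replicates correlated by 0.71 in vitro and 0.11 on day 7.

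**Figure D2:**
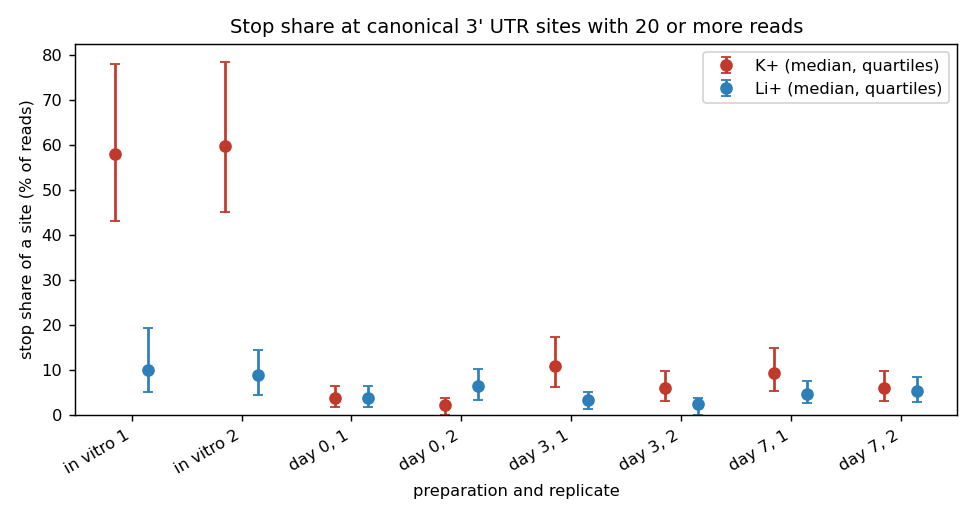
Stop share (percent of reads) of canonical 3′ UTR sites with 20 or more reads, by preparation and replicate, in K+ and Li+. Points are medians and bars quartiles; in vitro K+ medians are 58.0% and 59.8%, and no in-cell K+ median exceeds 10.8%.

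In cells the shares were far lower. The pooled K+ share of members was 4.25% and 2.65% on day 0, 12.9% and 7.04% on day 3, then 10.8% and 6.80% on day 7. In Li+ it was 4.49% and 7.54% on day 0, 3.62% and 2.83% on day 3, then 5.24% and 5.89% on day 7. K+ exceeded Li+ in all 4 samples of days 3 and 7 and in neither sample of day 0, and the excess was smallest in day 7 replicate 2.

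For K+ share in vitro against day 7 cells, 394 of 396 members tested were higher by limma (Benjamini-Hochberg adjusted p under 0.05) and none lower, against 99.4% and 0.0572% of all 3497 sites. Nearly every site was called, so the members' count is that of the background. For K+ over Li+ odds, 215 of 303 members were higher and none lower, against 74.8% and 0% of 2648 sites. The K+ excess in vitro is a property of the site list, so a higher in vitro value is partly built into both comparisons. Their calls therefore do not test the direction of the difference. The sites named next were chosen by size of change, so their values, with the adjusted p, are a description. Nup188, a nuclear pore scaffold, had 146 of 177 and 187 of 219 K+ reads stopped in vitro, against 1 of 179 and 2 of 104 on day 7, a log2 odds change of 8.61 ± 0.97 (SE, adjusted p = 8.26e-06). Myo1c, an unconventional myosin, had 203 of 215 and 245 of 261 in vitro, against 3 of 75 and 2 of 76 on day 7. Tnpo2, an importin, and Plcb3, a phospholipase C, changed by 7.87 ± 0.81 and 7.74 ± 1.14. Chmp1a, an ESCRT-III subunit, had the widest error, 7.84 ± 3.33. In K+ over Li+ odds, Slc16a3, a lactate exporter, was higher by 7.35 ± 0.70 and Akt1, a growth kinase, by 7.37 ± 1.55. Arl8a, a lysosomal GTPase, and Msi1, an RNA-binding protein of neural progenitors, were higher by 7.29 ± 1.17 and 7.10 ± 1.46.

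Of the 12 members with the highest lowest K+ coverage in cells, 11 are described here by sample. Prmt1, the main arginine methyltransferase, had K+ stops at 82 of 1804 and 29 of 799 reads on day 0, 82 of 427 and 84 of 1012 on day 3, then 362 of 2360 and 120 of 1690 on day 7. The day 7 shares were 15.3% (95% Wilson interval 13.9% to 16.9%) and 7.10% (5.97% to 8.43%) in K+, against 8.72% (7.96% to 9.55%) and 5.18% (4.15% to 6.46%) in Li+. Such intervals cover counting error only. The log2 odds ratios were -0.25 and -1.68 on day 0, 2.46 and 1.26 on day 3, then 0.92 and 0.48 on day 7. Day 3 and day 7 values lay above both day 0 values.

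Tkt, a pentose phosphate enzyme, had the same order, with log2 odds ratios of -0.22 and -1.66 on day 0, 1.60 and 1.39 on day 3, then 1.69 and 0.51 on day 7. Aldh2, a mitochondrial aldehyde dehydrogenase, had -1.54 and -1.35, 1.60 and 0.95, and 0.92 and 0.65. Ptbp1, a splicing repressor, had 1 of the lowest shares, 19 of 1340 and 13 of 779 K+ reads on day 7, with ratios of 0.33 and 0.54. Its motif, an 11-guanine tract beside a 4-guanine tract, had 247 of 799 and 385 of 1208 stops in vitro. Stip1, a co-chaperone, Pdap1, Srrm2, Chmp4b, Cdk16, Lmnb1 and Atic complete the 11. Of these, 9 had K+ above Li+ in both day 7 samples, and Stip1 and Srrm2 did not in replicate 2, at -0.01 and -0.40.

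**Figure D3:**
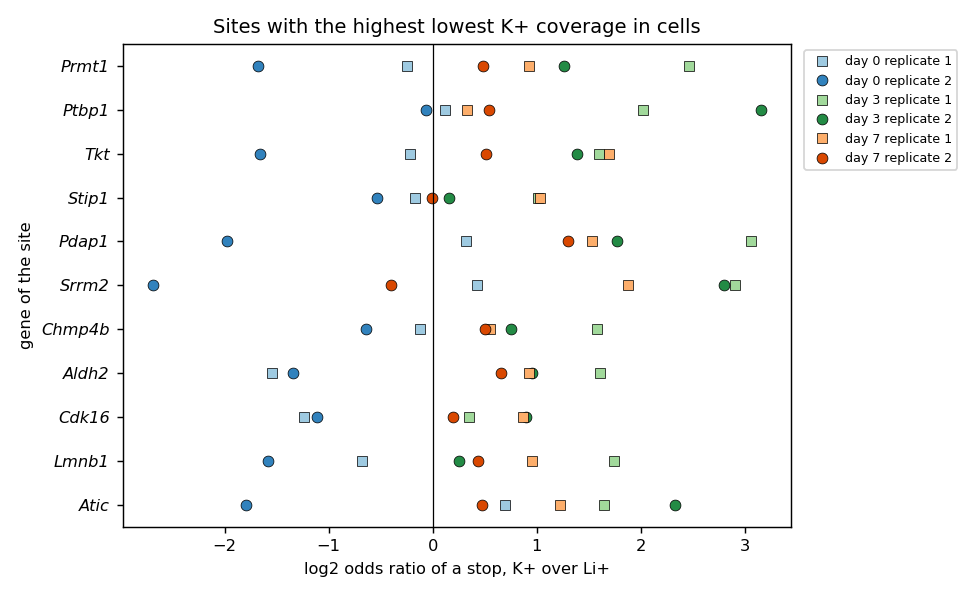
Log2 odds ratio of a stop in K+ over Li+ at 11 members of highest coverage, each row a site and each point 1 of the 6 in-cell samples. In 9 of the 11 both day 7 points lie right of 0, and every day 0 replicate 2 point lies left of it.

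In the fit of K+ against Li+ odds (limma, 12 libraries), 0 of 107 members and 0% of 847 sites passed within any of days 0, 3 and 7, and likewise 0% for each change between days. At unadjusted p under 0.05 there were 6 members on day 0, 36 on day 3 and 18 on day 7, against 25, 92 and 30 of the 847 sites. Single libraries carry these counts: without day 3 replicate 1 there was 1 member on day 3, and without day 7 replicate 1 there was 1 on day 7. For the changes there were 23 members on day 7 against day 0, 44 on day 3 against day 0 and 3 on day 7 against day 3, against 50, 109 and 21 sites. After the exchange of columns the 23 became 1 and the 44 became 6, against 7 and 17 sites. The 23 and the site count beside it also fell without day 0 replicate 2 and without day 7 replicate 1. The 44 and its site count fell without day 0 replicate 2 and without day 3 replicate 1. The members' median log2 odds ratio was -0.61 on day 0, 1.46 on day 3 and 0.69 on day 7, against -0.33, 0.70 and 0.21 over all sites. The day 7 median was 0.26 without replicate 1 and 1.05 without replicate 2 of that day. On day 0 it was -1.30 without replicate 1, -0.22 without replicate 2 and 0.52 with the columns of that replicate exchanged, so exchanging the columns of that library turns the sign. The members' median change was 1.46 for day 7 against day 0 and 2.11 for day 3 against day 0. These were 0.95 and 1.77 without day 0 replicate 2, and 0.33 and 1.09 with its columns exchanged. Without day 7 replicate 1 the change on day 7 was 0.94. The excess on days 3 and 7 was spread over many members. Of 107 with 20 reads in every library, 59 had K+ above Li+ in all 4 of these samples. That compares with 70 of 403 other 3′ UTR sites and 176 of all 847 sites. None of the 107 had it in all 6, against 8 of the 403 and 14 of the 847, so this 0 is near the background.

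Members differed from other 3′ UTR classes in the same direction in 5 of 6 samples, or in 4 of 6 with 1 site a gene. The test across samples did not pass in either setting. The difference in median log2 odds ratio was 0.05 and -0.80 on day 0, 0.60 and 0.73 on day 3, then 0.51 and 0.44 on day 7, with a mean of 0.26 ± 0.57 (SD, n = 6; exact sign-flip test, two-sided, p = 0.344). Without day 0 replicate 2 the mean was 0.47 and p was 0.0625, the smallest that 5 samples allow. With its columns exchanged the mean was 0.52 and p was 0.0312, the smallest that 6 samples allow. The exchange turns the sign of the only negative difference, so all 6 then lie above 0 by construction. That p was therefore fixed in advance and is no test of the class difference. Against the 71 canonical sites in coding sequence the mean difference was 0.13 ± 0.57 (exact p = 0.562, n = 6), with 12 to 58 coding sites per sample, and at a coverage minimum of 50 it was -0.19.

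**Figure D4:**
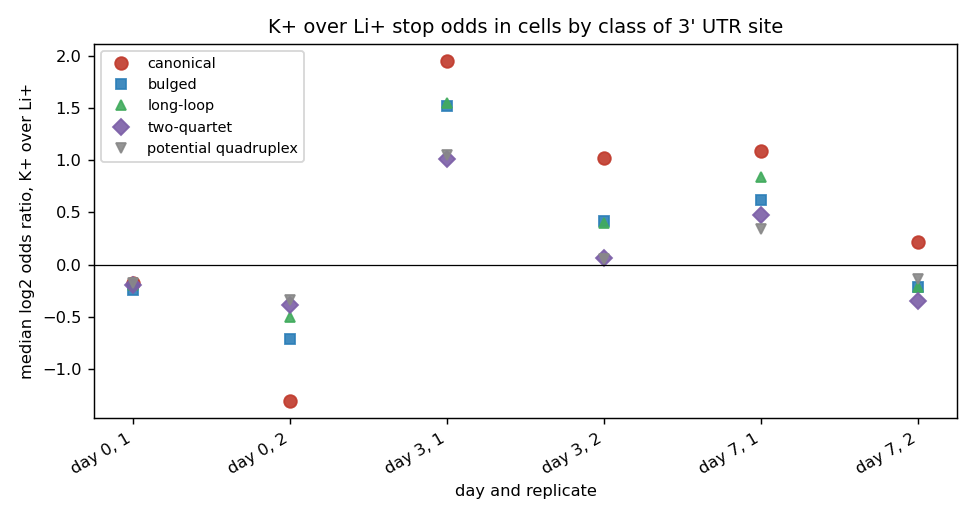
Median log2 odds ratio of K+ over Li+ by class of 3′ UTR site in the 6 in-cell samples, at sites with 20 or more reads in both cations. Canonical sites have the highest median in all 4 samples of days 3 and 7 and the lowest in day 0 replicate 2.

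K+ stops were then compared between days by limma-voom. Of 68 members tested on day 7 against day 0, 7 rose and 2 fell, against 10.1% and 6.12% of 327 sites, so members were called at about the background rate. The split depends on scaling: with trimmed means of M values (TMM) taken over all sites before the filter it was 9 up and 0 down (55 and 11 over all sites), and with library totals alone 22 and 0. The median change over all sites was 0.16, 0.63 and 1.26 under these scalings, and 0.42, 0.86 and 1.50 over members. The first of these, TMM over the sites that passed the filter, was taken as the main scaling after the calls under it and under TMM over all sites had been seen.

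Ddit4 encodes a stress-induced brake on the kinase complex mTORC1. It had K+ stops at 192 of 1399 and 88 of 1175 reads on day 7, against 15 of 108 and 4 of 120 on day 0. That is 444 ± 79.4 CPM (stops scaled by TMM library size), against 84.5 ± 6.14 (SD, n = 2 each), a log2 change of 2.32 ± 0.51 (SE, adjusted p = 0.0128). On day 3 stops stood at 630 ± 198 CPM, and that rise passed too (2.76 ± 0.49, adjusted p = 0.0362). With median-ratio factors and with the replicate block no member passed on day 3 against day 0, so this call and that of Wnk1 below were lost. The 3 Ddit4 sites tested rose on day 7, and reads over the site also rose, by 2.14. The shares, 13.7% and 7.49% on day 7 against 13.9% and 3.33% on day 0, overlap.

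Jun, an immediate early transcription factor, had 58 and 17 K+ stops on day 7, against 0 and 0 where its reads were listed at 0 in both day 0 samples. Set against the 5-read limit of a listed 0, stops were at least 1.65-fold and reads over the site at least 27.8-fold higher. The fit takes a listed 0 as no stops, and its adjusted p of 0.00208 is for that comparison, not for the bound. The site passed the filter only through its day 7 samples. It was also called against day 3 (adjusted p = 0.00466), where K+ reads were listed at 0 in both samples. Laptm4a, a lysosomal membrane protein, had 67 and 26 stops, against 5 and 0 on day 0, a change of 2.98 ± 0.68 (adjusted p = 0.0169), and its reads did not pass (0.67 ± 0.29, adjusted p = 0.134). The 0 is from day 0 replicate 2, where 0 of 80 K+ reads but 6 of 60 Li+ reads stopped. The Li+ shares at Laptm4a were 3.35% and 5.42% on day 7, against 3.61% and 10.0% on day 0. Laptm4a was also among the stronger in vitro stoppers, at 92.4% and 93.6% in K+. Ptk7, a Wnt co-receptor, had 92 and 26 stops, against 6 and 2, a change of 1.98 ± 0.54 (adjusted p = 0.0291). Wnk1, a kinase of ion transport, had 28 and 12, against 2 and 0, a change of 2.36 ± 0.59 (adjusted p = 0.0251). Its reads were listed at 0 in day 0 replicate 2, and reads over the site also rose (fitted change 4.59, adjusted p = 0.0406). On day 3 stops rose by 3.53 ± 0.61 (adjusted p = 0.0362). At Wnk1 only 13 and 35 K+ reads stood behind the day 3 values.

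Pkm, a glycolytic enzyme gene, had 18 and 21 stops on day 7, against 42 and 12 on day 0, a log2 change of -2.08 ± 0.56 (adjusted p = 0.0291). Its scaled values of 36.4 and 119 CPM on day 7 lay below 249 and 241 on day 0. The Li+ share at Pkm was lower as well, 4.66% and 5.28% on day 7, against 7.18% and 9.25% on day 0. Its log2 odds ratios of K+ over Li+ overlap, at -0.31 and -0.10 on day 7 and -0.10 and -0.41 on day 0. Cdk16, a cyclin-dependent kinase, had 11 and 6, against 17 and 8, a change of -2.19 ± 0.54 (adjusted p = 0.0250), while reads over the site fell by 2.03. Both calls were lost with TMM over all sites. On day 3 against day 0, 2 members rose and 0 fell, against 0.612% and 0% of sites, and Cdh3, a cadherin, had 3.22 ± 0.66 and did not pass (adjusted p = 0.0742). On day 7 against day 3, 2 rose and 1 fell, against 5.5% and 0.917%. With TMM over all sites there were 6 up and 0 down on day 3 against day 0, and 3 and 0 on day 7 against day 3. Arl6ip5, an ER membrane protein, had 37 and 15 stops, against 0 and 1 (2.98 ± 0.63, adjusted p = 0.0227), the 0 being a sample with K+ reads listed at 0. The Arl6ip5 site passed the filter only through its day 7 samples, so this call is a description. Cdh3 had 6 and 3, against 6 and 8 (-2.51 ± 0.61, adjusted p = 0.0399). The Cdh3 site passed the filter only through its day 3 samples, so this call and its value on day 3 against day 0 are a description.

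**Figure D5:**
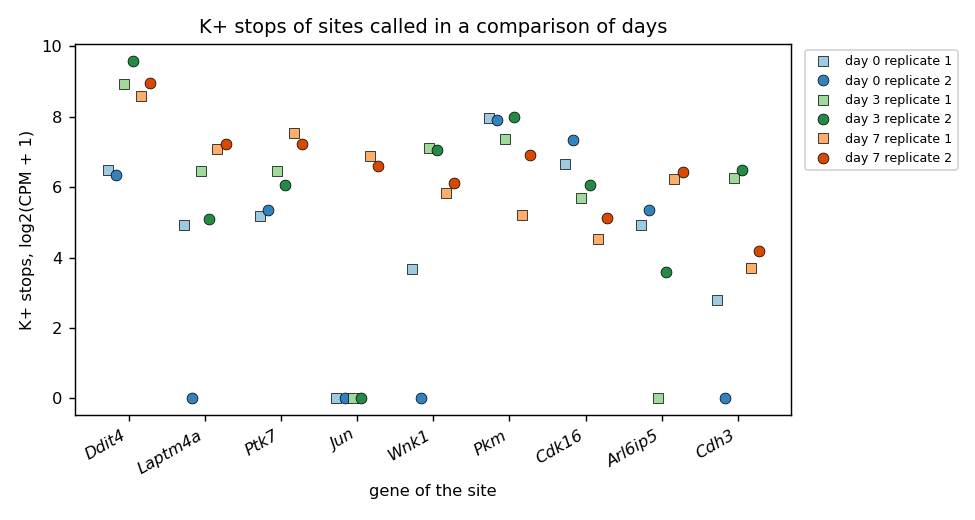
K+ stops, log2(CPM + 1), in each in-cell sample at the 9 member genes called in a comparison of days. Jun is at 0 in all 4 samples of days 0 and 3; Pkm and Cdk16 lie lower on day 7 than on day 0.

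These calls rest on few libraries. No member called higher against day 0 reached the filter minimum in a day 0 sample, so each was tested through a later day. The filter was applied anew each time, so the number tested moves too. On day 7 against day 0, without day 0 replicate 1, 5 of 48 members rose and 0 fell (23 and 0 of 207 sites). Without day 0 replicate 2 there were 3 and 0 of 107 members (29 and 0 of 486 sites). Without day 3 replicate 1 there were 11 and 2 of 92 (53 and 23 of 418), and without day 3 replicate 2 there were 12 and 3 of 91 (59 and 26 of 436). Without day 7 replicate 1 there were 2 and 0 of 41 (8 and 3 of 165), and without day 7 replicate 2 there was 1 each way of 45 (11 and 15 of 186). With the columns of day 0 replicate 2 exchanged there were 4 and 2 of 77 (31 and 12 of 342). On day 3 against day 0 no member passed without day 0 replicate 2 or without day 3 replicate 1, and 1 passed without day 7 replicate 2. On day 7 against day 3 no member passed without day 0 replicate 1 or without day 7 replicate 1, 1 passed without day 3 replicate 1 or without day 7 replicate 2, and 6 passed without day 3 replicate 2.

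Reads over the sites, K+ plus Li+, reflect the chromatin-bound polyadenylated RNA recovered at each site, not all RNA of the gene in the cell. The mix of K+ and Li+ reads also varied between samples. In bulk samples fewer cells of a type and less RNA per cell cannot be told apart. On day 7 against day 0, 102 of 551 members rose and 29 fell, against 16.1% and 4.21% of 4990 sites. With library totals alone 135 members rose and 2 fell (1152 and 22 of all sites), and the median change over all sites was 1.18, against 0.51 with TMM. Of the 131 called members 64 were listed at 0 on day 0, where a 0 stands for at most 5 reads per cation. Among the 195 members listed in all 12 libraries 8 rose and 25 fell, against 54 and 187 of 1765 sites listed in all, and the median change was -0.39, against -0.24 over these sites. Without day 7 replicate 1 there were 3 members up and 0 down (17 and 9 sites), and without day 7 replicate 2 there were 8 and 13 (78 and 81). Without day 0 replicate 1 there were 139 and 57 (1365 and 287), and without day 0 replicate 2 there were 64 and 7 (449 and 61). Without day 3 replicate 2 there were 77 and 9 (577 and 62). On day 3 against day 0 none of the members passed in either direction, against 0.0601% and 0.02%, while 63 of 551 had an unadjusted p under 0.05, against 431 of 4990 sites. On day 7 against day 3, 58 rose and 16 fell, against 10.4% and 1.66%, and with library totals alone there were 72 and 4 (655 and 19 of all sites). Without day 7 replicate 1 there were 0 and 1 (20 and 3 sites), and without day 7 replicate 2 there were 2 and 7 (49 and 46). Without day 3 replicate 1 there were 105 and 3 (939 and 22), and without day 3 replicate 2 there were 29 and 2 (218 and 6).

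Flnc, the muscle filamin, Pkdcc, a secreted kinase, Car4, a membrane carbonic anhydrase, and Nnat, an imprinted neural proteolipid, were listed at 0 on day 0 and were at least 17.7-fold, 14.4-fold, 13.2-fold and 10.3-fold higher on day 7. Esrrb, an orphan nuclear receptor of naive pluripotency, fell to 7.93 ± 1.25 CPM on day 7, against 46.8 ± 0.20 CPM on day 0 (SD, n = 2 each; log2 change -2.68 ± 0.52, adjusted p = 0.0114). Nfatc2ip, Cdk16, Gna11 and Ino80, a chromatin remodeller, fell by 2.59, 2.03, 1.94 and 1.78.

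Gene lists chosen with earlier results known were read on day 7 against day 0, where all sites tested had a median log2 change of 0.16 for K+ stops and 0.51 for reads. Of all sites tested, 10.1% rose and 6.12% fell in stops, and 16.1% rose and 4.21% fell in reads. Of the list of mTORC1 and stress genes, 4 of 4 sites tested rose in stops, 3 of them in Ddit4 and 1 in Jun, and in reads 4 of 7 rose while Akt1s1, an mTORC1 subunit gene, fell. In the list of WNK, ion and membrane transport, 1 of 2 sites rose in stops, in Wnk1, and 1 of 3 rose in reads. The Ddit4, Jun and Wnk1 sites called in stops reached the filter minimum in no day 0 sample, so their counts in stops are a description. In the list of RNA-binding and splicing factors 0 of 4 passed in stops, with Taf15 at 0.88, Lin28a at 0.83, Hnrnpa1 at 0.25 and Fxr2 at -0.56. In reads 2 of its 11 sites rose, in Lin28a and Msi2, and 2 fell, in Fxr2 and Ptbp1.

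Among chromatin regulators 0 of 2 sites passed in stops (Brd2 at 0.30 and Chd4 at 0.11) and 0 of 5 in reads. The list of pluripotency and early embryo regulators had 1 site tested in stops, in Lin28a, which did not pass, and of 3 sites in reads 1 in Lin28a rose and that in Esrrb fell. Lin28a, an inhibitor of let-7 maturation, had K+ stops on 89.0% and 91.8% of reads in vitro. The list of cytoskeleton and adhesion had 1 site tested in stops, in Cdh3, which did not pass (0.71), and 2 of 3 rose in reads, in Dbn1 and Flnc. Neural genes and signalling receptors, ligands and inhibitors had 0 sites tested in stops. In reads 3 of 4 neural sites rose, in Nnat, Sox11 and Sox4, and 3 of 5 signalling sites rose, in Fzd7, Igf1r and Notch3. The sites of Jun, Dbn1, Flnc, Nnat, Sox11, Sox4 and Igf1r were listed at 0 on day 0, so they could be tested only through a later day, and their counts stand as a description. No list had a site called in reads on day 3 against day 0.

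Cell type markers were read at sites of their genes, whatever the class. Markers of pluripotent cells with a site (5 of 9) summed to 1174 and 1133 CPM on day 0, 1182 and 1251 on day 3, then 584 and 601 on day 7. Feeder fibroblast markers (4 of 12) summed to 115 and 35.8 CPM on day 0, 114 and 69.3 on day 3, then 164 and 168 on day 7. Krt8 and Krt18 of the trophoblast list (2 of 6) were listed at 0 on days 0 and 3 and summed to 285 and 243 CPM on day 7. Mesoderm markers (2 of 4) summed to 0 and 0, 11.6 and 27.2, and 146 and 216 CPM on the 3 days, and neural markers (2 of 5) to 0 and 11.9, 0 and 0, and 75.6 and 57.8 CPM. None of the 5 endoderm markers had a site. The part of these cells in the changes of reads and stops was not tested.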

How the data were processed

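The submitters' processing notes name cutadapt, STAR and SAMtools, with no versions, and the builds GRCm38.p6 and mm10. Their settings, strand use and treatment of multi-mapping reads are not given in the sources at hand. What each site carries, per the file headers, is a pair of other values for K+ and for Li+, coverage and stops. These are whole-number read counts that the authors deposited without normalisation. A record runs over 2 lines, so the unit was recorded as other, and limma-voom was used in place of a count model, as the design had set.

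Tests of sites used limma 3.58.1 in R 4.3.3 across all sites. Voom took sites with 10 stops or reads at the median library in at least 2 libraries and 15 in all. TMM was first computed over all sites. After its calls were seen it was changed to the filtered sites, the more usual order, and both are reported. Odds used a pseudocount of 0.5, beta-binomial weights and 20 reads in every library. Class tests were exact sign-flip tests over 6 samples. Members, lists and named sites (by coverage, size of change or list) were chosen with earlier results of these data known. The tests were run on simulated data. That simulation was remade once, with correlation and baseline set near those of the real tables, after the first recovered few in vitro changes. Some items are not reported here.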

Additional observations from a re-analysis of the deposited data

Results flagged for a closer look

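In the values below both samples of one day lay on the opposite side of 0 from both of another. They are log2 odds ratios of K+ over Li+, given as the later day minus day 0. For the median of members the difference was 1.39 on day 7 (0.65, against -0.74) and 2.23 on day 3 (1.49, against -0.74). The difference of these medians was not tested. Among the deepest sites the day 7 difference was 1.67 at Prmt1, 2.04 at Tkt, 0.91 at Chmp4b, 2.23 at Aldh2, 1.71 at Cdk16 and 1.82 at Lmnb1. The day 3 difference was 2.83 at Prmt1, 2.43 at Tkt, 0.94 at Stip1, 1.55 at Chmp4b, 2.72 at Aldh2, 1.80 at Cdk16 and 2.13 at Lmnb1. In the limma fit no site passed for a change of odds between days. Every one of these differences includes day 0 replicate 2, where the members had more stops in Li+ than in K+.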

How the results depend on the processing

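Counts are of called members. For K+ stops, day 7 against day 0, the count of 9 (7 up, 2 down) became 22 with library totals and 33 with no filter. TMM over all sites kept 9 in all but split them 9 up and 0 down. Leaving out 1 replicate gave 2 to 15. For day 3 against day 0 the count of 2 became 6 with TMM over all sites, 0 with median-ratio factors, 14 with totals, 5 with no filter, 0 with the replicate block and 1 with the cation columns exchanged. Leaving out 1 replicate gave 0 to 3. For day 7 against day 3 the count of 3 became 27 with no filter, and 0 to 6 without 1 replicate. For reads over sites, day 7 against day 0, the range without 1 replicate was 3 to 196, and for day 7 against day 3 it was 1 to 108. For day 3 against day 0 totals gave 2. For K+ against Li+ odds 1 member passed on day 7 with a pseudocount of 1, and the change of odds on day 3 against day 0 had 0 to 1 without 1 replicate. At a coverage minimum of 50 the in vitro comparisons called 220 and 102 members, from fewer sites tested. The class difference was 0.52 with the columns exchanged, and -0.19 against coding sites at a coverage minimum of 50. The cause was not tested. Named sites kept their direction, and 61 of their alternatives no longer passed. Same-numbered samples share only a number. Replicate differences correlated by 0.04, -0.10 and 0.08 between days, and with the replicate block K+ stops had 7 up and 2 down on day 7 against day 0 and 2 and 0 on day 7 against day 3, and reads 82 and 19 and 52 and 10. Of 600 members, 20 reads in every library left 107 in the odds fit within cells, 303 in that of in vitro against day 7 and 396 in that of the K+ share.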
